A study of Mus musculus with 8 samples.

Results

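Heat shock proteins and their cochaperones are described here in the left ventricles (LVs) of mice under pressure overload. Members were chosen by name: the HSP70, HSP110, HSP90, small heat shock protein and mitochondrial chaperonin genes, the J-domain genes (Dnaja, Dnajb, Dnajc), the BAG genes and the heat shock factors Hsf1 and Hsf2, with a CPM (the count of a gene scaled to a fixed library total) that reached 1 in 2 or more libraries. The count table held 79 genes with such names, and 72 of them passed the filter, out of 13542 genes that passed among 46040 listed. The filter separated the members cleanly: the 3 just inside were Hspb11, Bag4 and Dnajc17 with mean CPM values of 3.45, 5.14 and 6.37, and the 7 outside, Dnajb3, Dnajc6, Hspb9, Dnajb13, Dnajc22, Dnajb7 and Dnajb8, had at most 6 counts in any library and a CPM of at most 0.524.

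The tissue came from male C57BL/6 mice of 5 to 7 months that had received angiotensin II (angII) at 0.1 mg/kg/h through an implanted minipump for 14 days, so that every group had pressure overload and none was untreated. One genotype was VEGFR-1 TK-/-, in which the VEGF receptor encoded by Flt1 lacks its intracellular tyrosine kinase domain in every cell type, and the other was littermate control. The labels of each library contradict each other: the genotype tag and the library name give one genotype and the sample title gives the other. The grouping used here follows the tags. Libraries are called control-tagged (n = 4) and VEGFR-1 TK-/--tagged (TK-tagged for short, n = 4), and are numbered as in the labels. The sign of every difference between the groups turns around if the titles are right. The labels name a kit that removes ribosomal RNA whereas the study's methods name poly-A selection. Library names contain the word cardiomyo although the source is LV tissue. Separate library names and RNA samples are given, but the labels do not state that each library is a different mouse, and the p-values measure the spread between these libraries.

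Between 11449137 and 16239670 counts per library fell on genes. Flt1, the targeted gene, had 67.4, 68.4, 56.9 and 84.3 normalised CPM in the control-tagged libraries and 144, 149, 170 and 168 in the TK-tagged libraries. Counts of the whole gene do not show the deleted part, and no label was chosen from them. Of the marker lists, all 6 cardiomyocyte genes passed the filter and summed to 46961 to 71092 normalised CPM in the first group and 59695 to 79632 in the second, while 0 of 4 adipocyte genes and 1 of 4 skeletal muscle genes passed. The atrial genes summed to 787 to 1310 and 503 to 1431, nearly all of it Nppa (means of 1130 and 914). Myl7 had means of 0.73 and 0.75 and Myl4 of 3.75 and 4.17, and Sln, with at most 3 counts, did not pass. The paper reports higher levels of ANP, the product of Nppa, after angII, so this sum does not measure atrial tissue. The fibroblast genes summed to 755 to 1101 and 450 to 969. The leukocyte genes summed to 88.6 to 121 and 64.8 to 95.6, and the red blood cell genes to 292 to 718 and 344 to 562. The endothelial genes summed to 1024 to 1328 and 934 to 1062. In such bulk samples, fewer cells of a type and less RNA per cell cannot be told apart. Control-tagged replicate 1 had the highest level of most heat-inducible members, by a margin that differed between genes. Values that rest on it are given with and without it.

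Heat shock proteins are chaperones that bind unfolded proteins and help them to fold, to assemble or to be degraded. HSP70 proteins work in cycles of ATP hydrolysis that J-domain proteins stimulate, and that BAG proteins and HSP110 drive onward by releasing the nucleotide; HSP90 completes the folding of kinases and receptors, and small heat shock proteins hold unfolded clients without ATP. The heart, whose sarcomeres work under constant load, is rich in small heat shock proteins, and heat shock factor 1 (HSF1) raises the inducible members within minutes to hours of proteotoxic stress.

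HSF1 binds as a trimer to inverted repeats of a short half-site, the heat shock element. The 250 bases before the RefSeq start (GRCm38.p6) were searched for both 2-half-site arrangements, GAANNTTC and TTCNNGAA, in which N is any base. Each of these motifs reads the same on both strands, and matches of both can overlap in a shared half-site. Promoter sequence was given for 57 of the 72 members. The stretches below show the matches of heat-inducible members, 5′ to 3′ along the gene, with the matches in capitals. The last 3 are cut to 30 bases because annotated exons reach into them, and the run of Hspe1 lies in the promoter it shares with Hspd1.
Hspa1a (chr17:34972229-34972284, minus strand): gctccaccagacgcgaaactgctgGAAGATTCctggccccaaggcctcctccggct
Hspa1b (chr17:34959311-34959366, minus strand): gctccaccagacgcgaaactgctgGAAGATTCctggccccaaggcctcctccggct
Hspb1 (chr5:135887778-135887853, plus strand): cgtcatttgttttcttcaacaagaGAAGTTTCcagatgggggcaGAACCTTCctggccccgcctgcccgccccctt
Dnaja1 (chr4:40722333-40722362, plus strand): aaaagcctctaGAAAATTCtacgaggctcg
Hsph1 (chr5:149636351-149636380, minus strand): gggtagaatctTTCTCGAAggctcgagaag
Hspe1 (chr1:55088053-55088082, plus strand): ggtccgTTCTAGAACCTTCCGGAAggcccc

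The stretches of Hspa1a and Hspa1b are identical, and the match begins 104 bases before the start in both. Hspb1 has a pair of separate matches, which begin 117 and 97 bases before its start. In Hspe1, 3 matches share half-sites in 1 continuous run. Either motif was present in 7 of 9 heat-inducible members with a sequence (77.8%), in 7 of the 48 other members (14.6%) and in 3932 of 27025 genes in the table (14.5%). The 7 heat-inducible members are not independent. Hspa1a and Hspa1b have windows that are 98.8% identical, and Hspd1 and Hspe1 share a promoter. No match was found for Dnajb1 and Bag3. The list was made of genes known to respond to heat, so its high share is no independent result. These are matches of letters only and do not show binding of HSF1.

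The members together took 1.99% to 2.48% of all counts of a library. Compared per length (normalised CPM per kb of exon, mean of the 8 libraries), the small heat shock proteins stood at the top. Hspb7, a small heat shock protein of heart and skeletal muscle, had 1991 and Cryab, the alpha B-crystallin that guards desmin, had 1675. Hsp90ab1, the constitutive cytosolic HSP90, followed with 670, Hspb6 with 667 and Hspa8, the constitutive cytosolic HSP70, with 567. Hspb7 lay between 4863 and 6313 normalised CPM over the 8 libraries and Cryab between 1939 and 3024, with overlapping groups for both. The 8 small heat shock protein genes took 1.04% to 1.17% of the counts of the control-tagged libraries and 0.933% to 1.16% of those of the TK-tagged libraries.

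**Figure D1:**
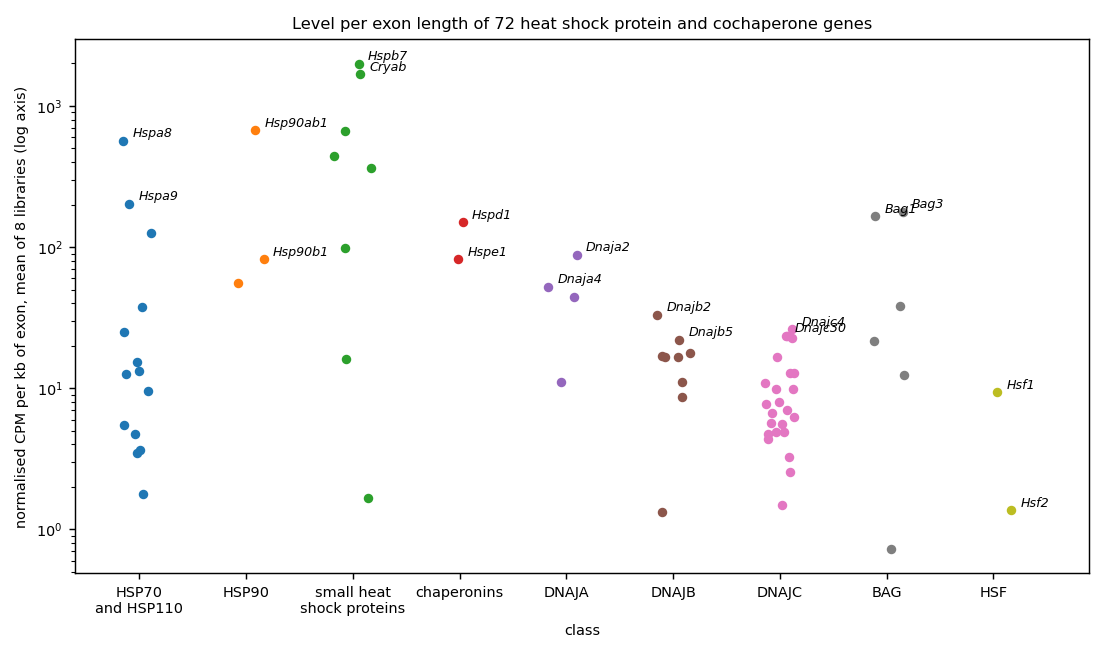
Level of each of the 72 members per exon length (normalised CPM per kb of exon, mean of 8 libraries, log axis) by class, 1 point per gene, with the 2 highest of each class named. Small heat shock proteins hold the highest points, with Hspb7 at 1991 and Cryab at 1675, and Hsp90ab1 and Hspa8 are the next named genes at 670 and 567.

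In the other compartments and classes, the mitochondrial HSP70 Hspa9 had 202 normalised CPM per kb of exon, and the mitochondrial chaperonins Hspd1 (HSP60) and Hspe1 (HSP10) had 150 and 81.9. The endoplasmic reticulum (ER) chaperones Hspa5 (BiP) and Hsp90b1 (GRP94) had 126 and 81.7. Bag3, which links HSP70 to small heat shock proteins and autophagy in muscle, had 179, close to Bag1 at 165. Among J-domain genes, Dnaja2 (88.0), Dnaja4 (52.1) and Dnajb2 (33.0) led their classes with Dnajb5 (22.1), and Dnajc4 (26.2) and Dnajc30 (23.5) led the Dnajc genes. Hsf1 stood at 9.36 and Hsf2 at 1.37. The stress-inducible HSP70 genes Hspa1a and Hspa1b stood at 12.7 and 13.2, far below Hspa8, but these means hide the widest spread of any member.

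Hspa1a had 169, 6.53, 19.1 and 38.2 normalised CPM in the control-tagged libraries and 16.3, 5.68, 34.7 and 11.2 in the TK-tagged libraries. Hspa1b had 177, 5.88, 15.9 and 39.3, and 13.4, 4.35, 31.4 and 9.01. Both genes encode the inducible HSP70, and in both the highest library was control-tagged replicate 1, 29.7 times the lowest library for Hspa1a and 40.7 times for Hspa1b. The groups overlapped: control-tagged replicate 2 lay below 3 of the 4 TK-tagged libraries. The within-group SD of log2 normalised CPM was 1.58 and 1.68, above 99.9% of all genes tested, against a median of 0.17 over the members and 0.21 over all genes. Behind them, the widest spreads among members were those of Dnajb1 (0.73), Dnaja1 (0.48) and Hsph1 (0.44).

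The coding sequences of Hspa1a and Hspa1b differ at 10 of 1929 aligned bases (99.5% identical), with a longest identical run of 638 bases. Whether reads with several alignments were counted is not stated, so that the split between both genes is uncertain and they count as 1 observation rather than as independent ones. Their 250-base promoter windows are identical at 247 positions.

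The study asks how loss of VEGFR-1 kinase signaling changes the loaded heart, and the comparison between the groups addresses this for chaperones. By the quasi-likelihood test, 0 of 72 members passed an FDR under 0.1 with at least a 1.5-fold difference, where 1 of 13542 genes passed (0.00738%), which was Flt1. The lowest FDR of a member was 0.442. At an unadjusted p under 0.05 stood 7 members (9.72%), against 8.96% of all genes tested, 3 of them higher in the TK-tagged libraries (3.32% of all genes) and 4 lower (5.64% of all genes). The groups did not overlap for 3 members (4.17%, against 4.98% of all genes), Hspa1l, Dnajc4 and Dnajc28. These shares lie near those of all genes. The median log2 fold change was 0.04 over the members and -0.0012 over all genes tested. Of the members, 47 lay above 0 (65.3%, against 49.7% of all genes) and 25 below.

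**Figure D2:**
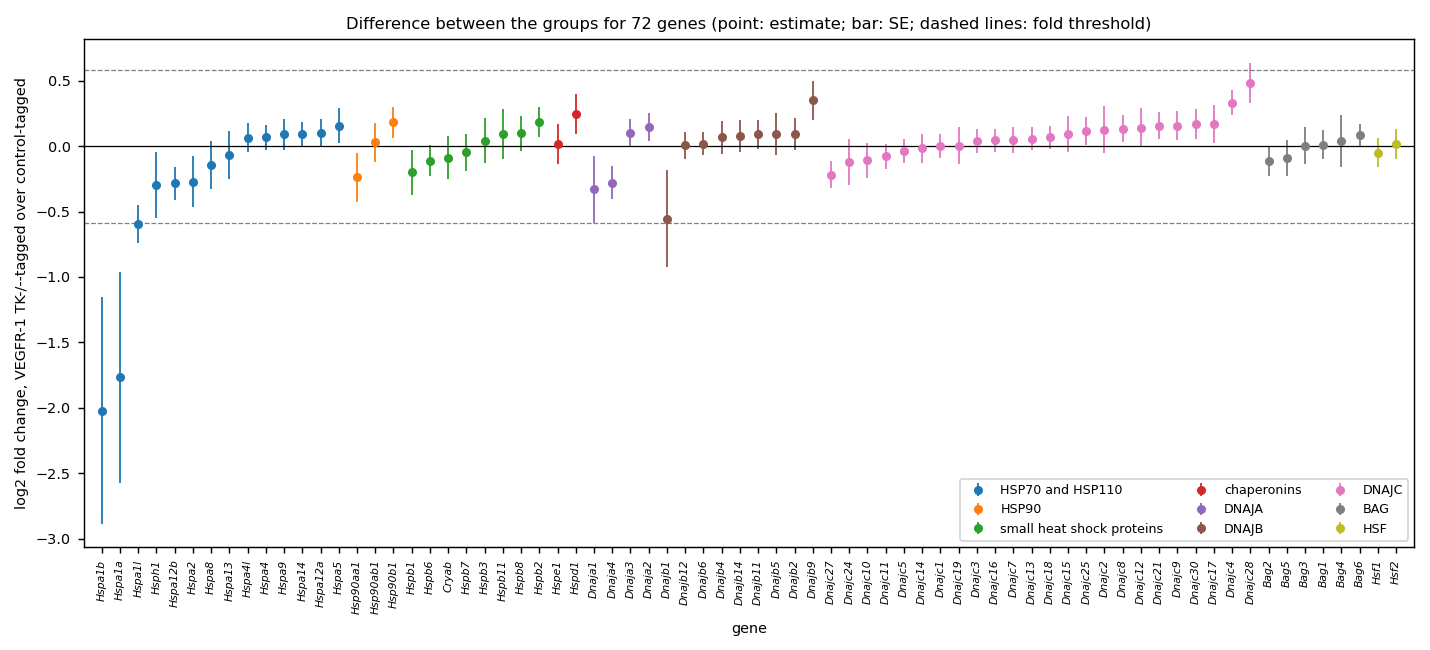
Log2 fold change of normalised counts, TK-tagged over control-tagged, for each of the 72 members by class (point: estimate of the quasi-likelihood fit; bar: SE; dashed lines: a fold of 1.5 in either direction). Hspa1a (-1.77), Hspa1b (-2.02) and Hspa1l (-0.60) are the only points below the lower line, no member lies above the upper line, and none passed the FDR threshold.

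By class, the counts of members with a log2 fold change above 0 were 6 of 14 HSP70 and HSP110 genes, 2 of 3 HSP90 genes, 4 of 8 small heat shock protein genes, 2 of 2 chaperonins, 2 of 4 Dnaja, 8 of 9 Dnajb, 18 of 24 Dnajc and 4 of 6 BAG genes, and 1 of 2 heat shock factors. Over all genes tested, 49.7% lay above 0. The unadjusted p was under 0.05 for 4 of 14 HSP70 and HSP110 genes (28.6%), all lower in the TK-tagged libraries. It was so for 1 Dnajb gene (11.1%) and 2 Dnajc genes (8.33%), all higher, against 8.96% of all genes. Of the 4, Hspa1a and Hspa1b count as 1 observation, and their differences rested on control-tagged replicate 1.

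Among the HSP70 genes, Hspa1l, a relative of Hspa1a that is known mainly from testis, had 29.7, 24.2, 30.1 and 30.6 normalised CPM in the control-tagged libraries and 15.4, 15.6, 21.9 and 22.8 in the TK-tagged libraries. Every control-tagged library lay above every TK-tagged library, with means of 28.7 ± 2.97 and 18.9 ± 3.95 (SD, n = 4). Its log2 fold change was -0.60 (SE 0.15, p = 0.00168 and FDR 0.442 in the edgeR quasi-likelihood fit), and the exact permutation p was 0.0286, the smallest that 70 divisions of the libraries allow. Hspa1l was the single member called by the likelihood ratio test (FDR 0.0658), which called 0.391% of all genes, and by DESeq2 (FDR 0.0805), which called 0.236%. This estimate lay between -0.70 and -0.51 when each library was left out in turn.

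Hspa1l (chr17:34972703-34979285, plus strand) starts 546 bases from Hspa1a (chr17:34969190-34972156, minus strand) in a head-to-head arrangement, and Hspa1b (chr17:34956436-34959238, minus strand) lies 9951 bases beyond Hspa1a. The coding sequence of Hspa1l is 83.3% identical to that of Hspa1a, with a longest identical run of 233 bases. Across the 8 libraries, Hspa1a and Hspa1l had a Pearson r of 0.57 (exact permutation p = 0.143) and a Spearman rho of 0.55 (exact permutation p = 0.171). Control-tagged replicate 2 was the lowest of its group for both, with 6.53 of Hspa1a and 24.2 of Hspa1l, and TK-tagged replicate 3 had 34.7 and 21.9. With 8 libraries these values cannot show whether the levels of both genes ran in parallel. Without strand in the counting, which is not stated, reads of Hspa1l and of the antisense gene Gm10501 cannot be told apart, as 1778 exon bases (71.9% of those of Hspa1l) are shared. Gm10501 had 23 to 42 counts per library and a log2 fold change of 0.23.

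Hspa12b, a distant HSP70 known from endothelial cells, had 76.4, 110, 111 and 108 normalised CPM in the control-tagged libraries and 92.2, 77.9, 83.7 and 78.7 in the TK-tagged libraries. Control-tagged replicate 1 was the lowest library of all and the other control-tagged libraries were the 3 highest, so that the groups overlapped. Hspa12b thus had a log2 fold change of -0.29 (SE 0.12, p = 0.0406, FDR 0.539 by edgeR, and exact permutation p = 0.143). Without control-tagged replicate 1 the groups did not overlap, and the log2 fold change was -0.40. The FDR of Hspa12b was 0.268 or higher in every alternative tried. Of the endothelial markers, 3 of 4, Pecam1 (-0.29), Cdh5 (-0.38) and Tie1 (-0.40), had an unadjusted p under 0.05 and Kdr (0.01) did not. Over all genes tested, 8.96% had such a p. The 4 markers summed to 1024 normalised CPM in control-tagged replicate 1, the lowest of the control-tagged group. In control-tagged replicates 2, 3 and 4 they summed to 1316, 1328 and 1214, the 3 highest sums, in the same order as the levels of Hspa12b. In the TK-tagged libraries they summed to 1012, 934, 974 and 1062, and there the order differed from that of Hspa12b. Their part in the value of Hspa12b was not tested.

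The differences of Hspa1a and Hspa1b rested on 1 library. The log2 fold change was -1.77 (SE 0.81, p = 0.04999, FDR 0.556 by edgeR) for Hspa1a and -2.02 (SE 0.87, p = 0.0382, FDR 0.534) for Hspa1b, with exact permutation p = 0.343 for both. Without control-tagged replicate 1 they were -0.32 and -0.47.

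Among J-domain genes, Dnajc4, a mitochondrial J-domain protein, had 30.9, 27.8, 25.9 and 30.5 normalised CPM in the control-tagged libraries and 38.1, 34.0, 37.5 and 35.2 in the TK-tagged libraries. All TK-tagged libraries were above all control-tagged libraries. For Dnajc4 the log2 fold change was 0.33 (SE 0.09, p = 0.00413, FDR 0.442 by edgeR; exact permutation p = 0.0286). Dnajc4 (chr19:6987911-6992572, minus strand) lies 259 bases upstream of Vegfb, which encodes a ligand of VEGFR-1 and had a log2 fold change of 0.09 (SE 0.16).

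Dnajc28, whose role is little known, had 35.1, 30.8, 21.6 and 30.4 normalised CPM in the control-tagged libraries and 35.7, 51.3, 38.8 and 39.1 in the TK-tagged libraries. The groups did not overlap, but control-tagged replicate 1 and TK-tagged replicate 1 were nearly level. The log2 fold change was 0.48 (SE 0.15, p = 0.00899, FDR 0.464 by edgeR; exact permutation p = 0.0286), and it was 0.36 both without control-tagged replicate 3 and without TK-tagged replicate 2. Dnajb9 (ERdj4), an ER cochaperone of BiP, had 27.6, 23.1, 18.4 and 30.1 against 27.6, 29.8, 34.7 and 34.2, with overlapping groups and a log2 fold change of 0.35 (SE 0.15, p = 0.0363, FDR 0.528 by edgeR; exact permutation p = 0.114). Without control-tagged replicate 3, the library with the lowest level, it was 0.23.

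The 2 heat shock factors were close to level. Hsf1 lay between 59.4 and 80.3 normalised CPM in the control-tagged libraries and between 60.5 and 74.3 in the TK-tagged libraries (log2 fold change -0.05, SE 0.11). Hsf2 lay between 11.7 and 14.01, and between 11.7 and 14.4 (0.02, SE 0.12). HSF1 is mainly controlled by its release from chaperones and its phosphorylation, which counts of its RNA do not show.

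The remaining named members of the cytosol and the J-domain class had no FDR under 0.1 and overlapping groups. The log2 fold change was 0.03 (SE 0.15) for Hsp90ab1, -0.05 (SE 0.14) for Hspb7, and 0.18 (SE 0.11) for Hspb2, whose gene lies opposite to that of Cryab with 252 shared exon bases. Estimates were 0.01 (SE 0.11) for Bag1, -0.11 (SE 0.12) for Bag2 and 0.08 (SE 0.09) for Bag6, the members at the ends of the BAG class. Bag6 was steady, with 212 to 253 normalised CPM over all 8 libraries and a within-group SD at percentile 2.57 of all genes tested. Among J-domain genes, Dnaja2 had 0.15 (SE 0.11), Dnajb2 0.09 (SE 0.12), Dnajb5 0.09 (SE 0.16) and Dnajc30 0.17 (SE 0.12). Dnaja4 (-0.28, SE 0.13, exact permutation p = 0.114) shares 44.1% of its exon bases with Wdr61 on the opposite strand, which had -0.11. Dnajc27 had -0.22 (SE 0.10, exact permutation p = 0.114).

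In mitochondria and the ER the estimates were mostly above 0. Hspd1 had 475, 337, 290 and 346 normalised CPM in the control-tagged libraries and 374, 493, 419 and 428 in the TK-tagged libraries, a difference of 0.24 on the log2 scale (SE 0.15, FDR 0.657 by edgeR). This value was 0.40 (FDR 0.382) without control-tagged replicate 1 and 0.15 without control-tagged replicate 3. Its partner Hspe1, which shares 112 exon bases with it at their common promoter, had 0.01 (SE 0.15), and Hspa9 had 0.09 (SE 0.12). Hspa5 had 0.16 (SE 0.13) and Hsp90b1 0.18 (SE 0.12). The highest level of both ER chaperones was in TK-tagged replicate 3, with 688 and 392 normalised CPM, and the groups overlapped for both.

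**Figure D3:**
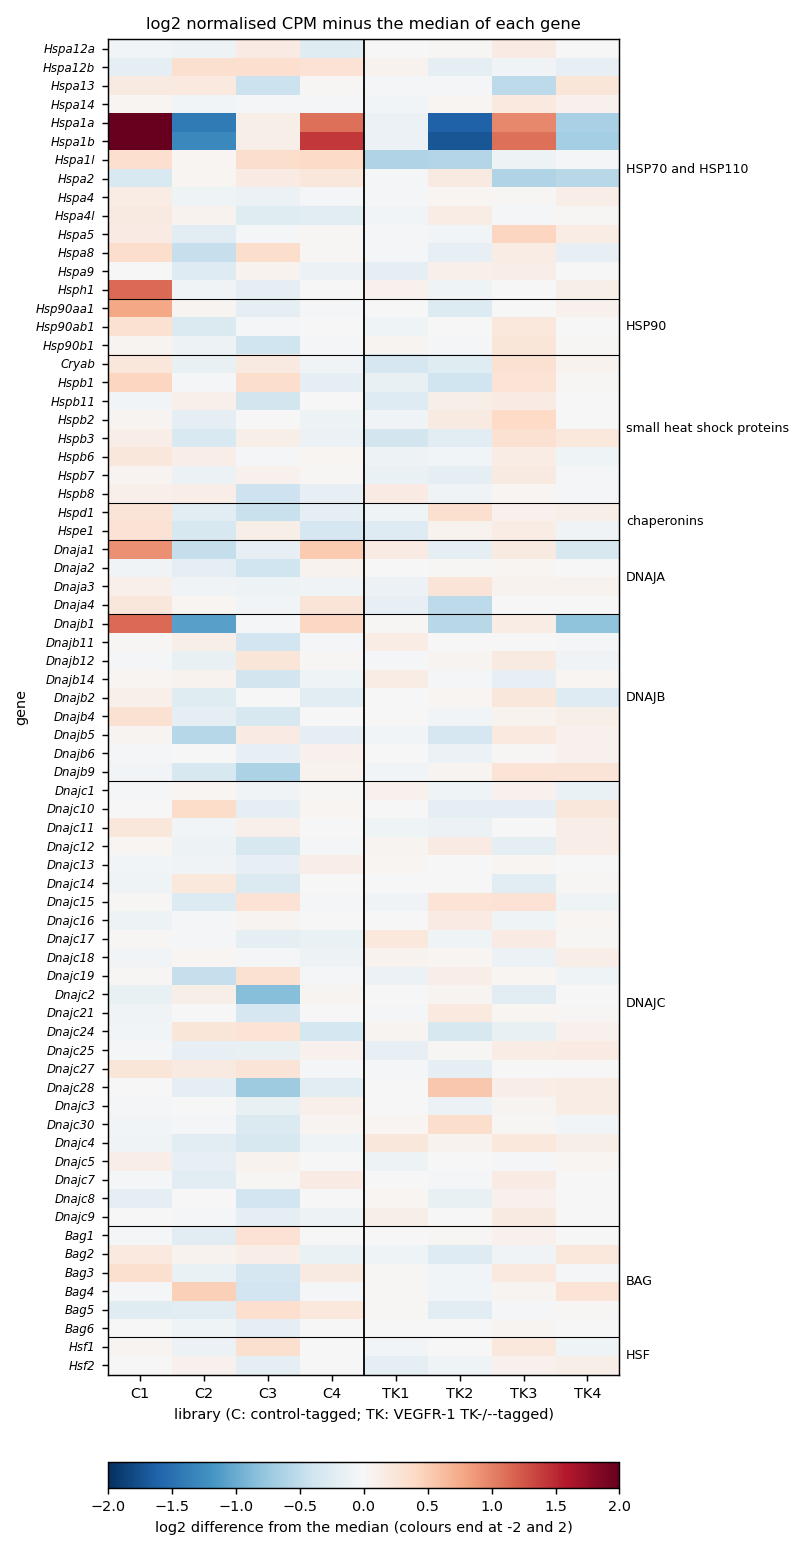
Log2 normalised CPM of each of the 72 members (rows, by class) in each of the 8 libraries (columns; C, control-tagged, and TK, TK-tagged) minus the median of that gene, with colours ending at -2 and 2. Hspa1a and Hspa1b have the reddest cells in C1 and are also red in C4 and TK3, Hsph1, Dnajb1, Dnaja1 and Hsp90aa1 are red in C1, and most other rows stay pale in all libraries.

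A single library carried the highest levels of most heat-inducible members. The heat-inducible list holds Hspa1a, Hspa1b, Hspa8, Hsp90aa1, Hsph1, Hspb1, Cryab, Dnajb1, Dnaja1, Bag3, Hspd1 and Hspe1, of which Hspa8 is the constitutive HSP70 named above. Of these 12, 10 had their highest level in control-tagged replicate 1 (83.3%). Hspa1a and Hspa1b are both in this count, although they are 1 observation. That library was the highest for 7 of the 60 other members (11.7%) and for 783 of all 13542 genes (5.78%). The exceptions were Hspd1, highest in TK-tagged replicate 2, and Cryab, highest in TK-tagged replicate 3.

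The size of this excess differed between genes. In control-tagged replicate 1, Hspa1a and Hspa1b were 4.42 and 4.50 times the next highest library and 10.3 and 13.2 times the median of the other libraries. Hsph1, the HSP110 that releases nucleotide from HSP70, had 215 normalised CPM there, 2.04 times the next highest library, and 92.7, 84.7 and 97.6 in the other control-tagged and 104, 92.1, 97.3 and 105 in the TK-tagged libraries. Apart from that 1 library, Hsph1 was thus level over all libraries. Hsp90aa1, the inducible cytosolic HSP90, behaved alike, with 350 there, 1.60 times the next, and 170 to 218 in the other 7 libraries. Dnajb1, the main J-domain partner of the inducible HSP70, had 112, 24.1, 50.0 and 68.3 in the control-tagged libraries and 52.1, 34.7, 56.9 and 29.3 in the TK-tagged libraries. Dnaja1, another cytosolic J-domain partner, had 162, 62.3, 77.3 and 125, and 96.6, 75.1, 97.8 and 69.4. For these J-domain genes the other 7 libraries also varied: the highest was 2.83 times the lowest for Dnajb1 and 2 times for Dnaja1.

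For the abundant members the excess was slight. Hspa8 had 3051 normalised CPM in control-tagged replicate 1 and 3038 in control-tagged replicate 3. Hspb1 (HSP27) had 584.8 and 555 in the same libraries. Bag3 had 561 against 511 in the next highest library, and Hspe1 151 against 136. Cryab had 2881, 2202, 2790 and 2337 in the control-tagged libraries and 1939, 2073, 3024 and 2574 in the TK-tagged libraries, and the groups overlapped.

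**Figure D4:**
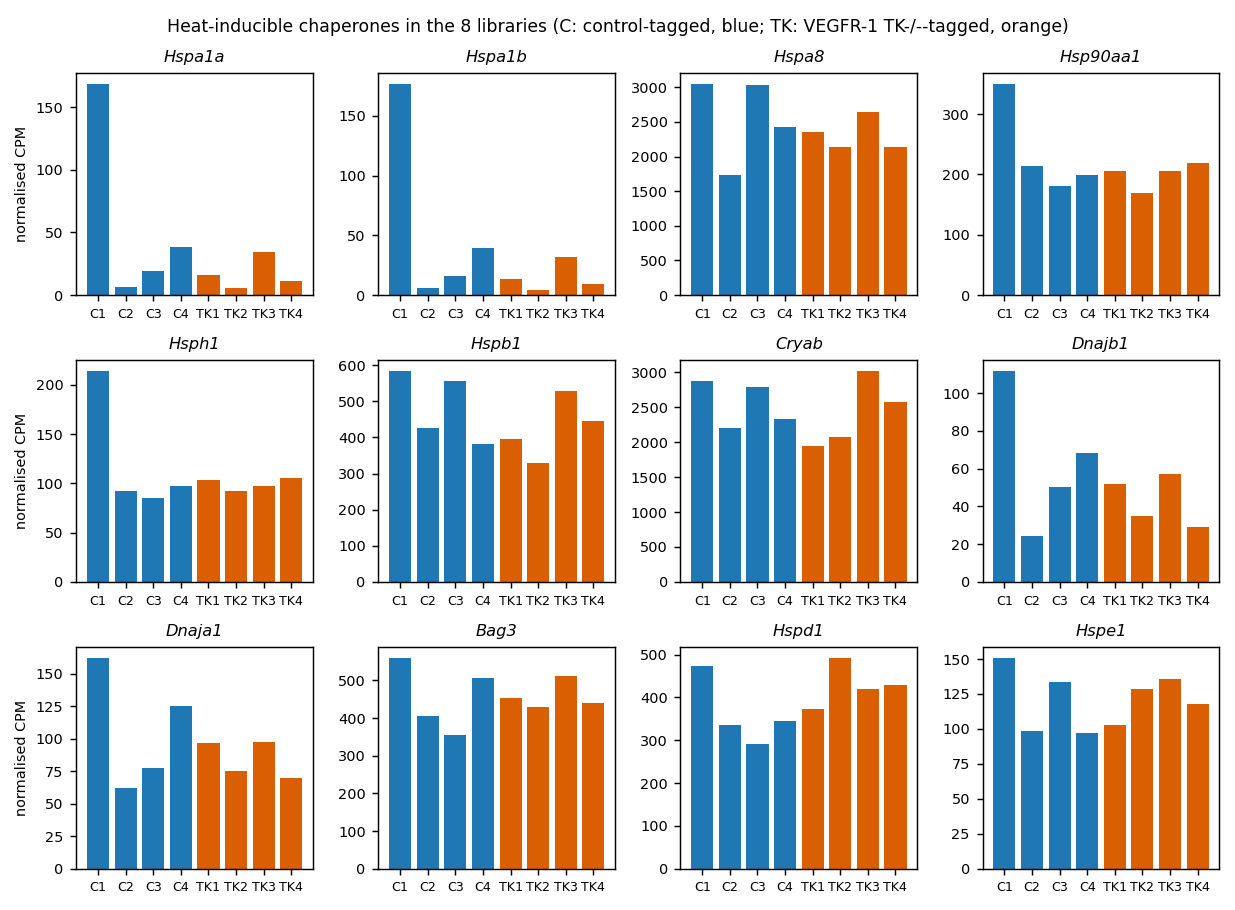
Normalised CPM of the 12 heat-inducible members in each of the 8 libraries (1 bar per library; blue C, control-tagged; orange TK, TK-tagged; each panel has its own axis from 0). C1 is the tallest bar in 10 panels, by 4.42 times over the next library for Hspa1a and by 1.00 times for Hspa8; Cryab and Hspd1 are tallest in TK3 and TK2.

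Estimates of several of these genes moved with control-tagged replicate 1. With that library left out, the log2 fold change went from -0.30 (SE 0.25) to 0.12 for Hsph1, from -0.24 (SE 0.19) to 0.01 for Hsp90aa1, from -0.55 (SE 0.37) to -0.13 for Dnajb1 and from -0.33 (SE 0.25) to -0.06 for Dnaja1. It went from -0.14 (SE 0.18) to -0.05 for Hspa8, from -0.20 (SE 0.17) to -0.10 for Hspb1 and from -0.09 (SE 0.17) to -0.03 for Cryab. In the other direction, it moved away from 0 for Hspd1 (0.24 to 0.40), Hspe1 (0.01 to 0.14) and Bag3 (0.00 to 0.12). Control-tagged replicate 2, the lowest or second-lowest library for the inducible HSP70 genes and their J-domain partners, moved values as well: without it the log2 fold change was -0.83 for Dnajb1, -0.52 for Dnaja1 and -0.29 for Hspa8. None of these genes passed the FDR threshold in any of these fits. The median of the 12 genes was -0.22, with 9 of 12 below 0, and without control-tagged replicate 1 it was -0.04, with 7 below 0. The 60 other members had a median of 0.07, with 44 above 0.

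Other values of that library stood beside this excess. Its total of 13533835 counts and its TMM factor of 0.988 lay within the range of the others. Immediate early genes (Fos, Fosb, Egr1, Junb, Atf3, Ier2), which respond to handling of tissue within minutes, summed there to 138 normalised CPM, against 90.3, 111 and 114 in the other control-tagged libraries and 107, 71.2, 126 and 127 in the TK-tagged libraries. Atf3 alone ranged from 10.4 to 65.0 over the 8 libraries, with 57.0 in control-tagged replicate 1. That library was the highest for 2 of these 6 genes, Fos and Junb (33.3%, against 5.78% of all genes). The part of handling in the heat-inducible genes was not tested.

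The heat-inducible members varied together across the 8 libraries. Of 66 pairs, 64 had a positive Pearson r of log2 normalised CPM, with a median of 0.61, and 6 pairs passed a Benjamini-Hochberg adjusted exact permutation p under 0.05 (2 pairs by Spearman rho). The median r was 0.61 also with each group centred on its mean. It was 0.21 without the 2 libraries farthest from the median of the first gene of each pair, and 0.23 without control-tagged replicate 1, so that the relation over the whole list rested largely on that library.

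The 6 pairs are those among Hspa1a, Hspa1b, Dnajb1 and Dnaja1, and for these r stayed between 0.897 and 0.994 without the 2 farthest libraries. For Hspa1a with Hspa1b, r was 1.00 and rho 1, but these near-identical genes may share reads. As both count as 1 observation, the pairs of Hspa1b with Dnajb1 and Dnaja1 repeat those of Hspa1a. All of these are among the 66 pairs and entered the adjustment. For Dnajb1 with Dnaja1, on different chromosomes, r was 0.96 (adjusted exact permutation p = 0.000818) and rho was 1 (adjusted p = 0.00164), with r = 0.93 without control-tagged replicate 1. For Hspa1a, r was 0.94 with Dnajb1 (rho = 0.90) and 0.93 with Dnaja1 (rho = 0.90), each with an adjusted exact permutation p of 0.0142 for r and 0.0502 for rho. The order of the libraries by Dnajb1 was thus that by Dnaja1, from control-tagged replicate 2 at the low end to control-tagged replicate 1 at the high end, and the libraries of both groups were mixed along it.

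Hsph1 and Hsp90aa1 behaved differently. Their r was 0.96 with each other (adjusted exact permutation p = 0.0677, rho = 0.76), but 0.68 without control-tagged replicate 1. With Hspa1a, Hsph1 had r = 0.78 over all libraries and 0.13 without that library, and Hsp90aa1 had 0.76 and 0.19. Hspb1 and Cryab, a pair of small heat shock proteins, had r = 0.87 (adjusted p = 0.0677 by exact permutation, rho = 0.81) and 0.84 without that library. The lowest correlations were those of Hspd1, with r = -0.16 to Hspb1 and -0.03 to Hspa8.

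**Figure D5:**
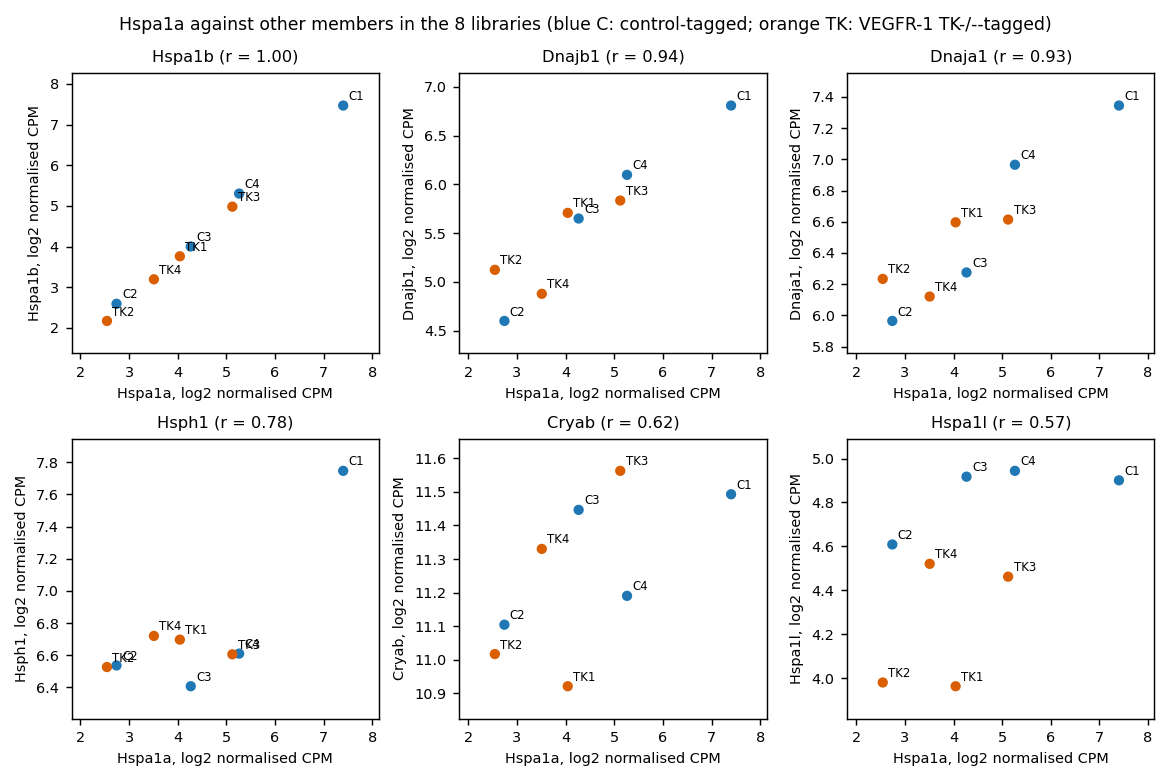
Log2 normalised CPM of Hspa1a (x axis) against that of Hspa1b, Dnajb1, Dnaja1, Hsph1, Cryab and Hspa1l (y axes) in the 8 libraries, 1 point per library (blue C, control-tagged; orange TK, TK-tagged), with Pearson r in each title. Points follow a line for Hspa1b (1.00), Dnajb1 (0.94) and Dnaja1 (0.93), C1 stands alone for Hsph1 (0.78), and for Hspa1l (0.57) the control-tagged points lie above the others at any level of Hspa1a.

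Partners of these chaperones, most of them not covered by the name rule, were examined as lists, and 0 members of any list passed the FDR threshold. Of 24 HSP90 cochaperones and regulators, such as Stip1, Cdc37, Ahsa1, Stub1 and the myosin chaperones Unc45b and Smyd1, 0 had an unadjusted p under 0.05, and the median log2 fold change was 0.03. Of these 24, 10 were highest in control-tagged replicate 1 (41.7%, against 5.78% of all genes). Of 15 genes of the cytosolic chaperonin CCT and prefoldin, which fold actin and tubulin, 1 had an unadjusted p under 0.05, Pfdn6 (0.32, SE 0.13), and the median was -0.01. Control-tagged replicate 1 was the highest for 2 of these 15.

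Of 31 genes of ER folding and the unfolded protein response, Hspa5 and Hsp90b1 included, 30 were tested (Derl3 had at most 2 counts). An unadjusted p under 0.05 was found for 2 of them. Herpud1, a component of ER-associated degradation, had 172, 148, 139 and 206 normalised CPM in the control-tagged libraries and 217, 241, 276 and 208 in the TK-tagged libraries. The groups did not overlap, by the narrow margin of 206 to 208, and the log2 fold change was 0.50 (SE 0.14, FDR 0.442 by edgeR). Serpinh1, the collagen chaperone HSP47, had 610, 478, 572 and 405, and 429, 331, 394 and 431 (-0.38, SE 0.14, FDR 0.505 by edgeR), and the groups overlapped. The fibroblast markers Col1a1, Dcn, Pdgfra and Lum, all below 0 with a median of -0.17 and 0 of 4 at an unadjusted p under 0.05, stood beside it, and their part was not tested. The median of the list was 0.08, and 2 of 30 (6.67%) at an unadjusted p under 0.05 compares with 8.96% of all genes.

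Of 15 genes of mitochondrial protein quality control, Hspa9, Hspd1 and Hspe1 included, 13 had a log2 fold change above 0 (86.7%, against 49.7% of all genes; median 0.09) and 2 had an unadjusted p under 0.05 (13.3%, against 8.96% of all genes). Clpx, the unfoldase of a matrix protease, had 0.28 (SE 0.10), and Pam16, a J-like subunit of the import motor that Hspa9 drives, had 0.28 (SE 0.10). The cardiomyocyte markers, whose cells are rich in mitochondria, had a median of 0.13, with 1 of 6 (Tnni3, 0.36) at an unadjusted p under 0.05, and their part in these values was not tested.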

How the data were processed

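LV RNA of 8 libraries was analysed, 4 in each group by the genotype tags. The members and gene lists were chosen with earlier results of these data known. The authors trimmed reads (Trim Galore 0.4.4), aligned them to GRCm38 (STAR 2.5.4b), counted them on genes of GENCODE M16 (featureCounts) and deposited raw counts per gene. The handling of strand and of reads with several alignments is not stated; either can add reads of an antisense gene or a paralog to a member.

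The 13542 genes whose CPM reached 1 in 2 or more libraries were normalised with TMM factors (0.917 to 1.12). The test was edgeR's quasi-likelihood test (version 4.0.16, R 4.3.3), without covariates, and FDR values were adjusted by Benjamini-Hochberg across the whole table of kept genes. Called genes had an FDR under 0.1 and a 1.5-fold difference or more. Fold changes set the VEGFR-1 TK-/--tagged against the control-tagged libraries. Normalised CPM is CPM with the TMM-adjusted library size, and log2 values had 2 prior counts added. An exact 2-sided permutation test over the 70 divisions of the libraries into groups of 4 was run on each member. Exon lengths and positions come from GENCODE M21 (GRCm38), promoters from RefSeq. The fit was tested on simulated counts.

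Named members are the heat-inducible list, the heat shock factors, members with an unadjusted p under 0.05, the 2 highest levels per kb and the extreme fold changes of each class, and the 5 widest within-group spreads. Hspb6 and pairs of promoters, correlations and list examples were picked with their values in view, as was the median of the heat-inducible list without 1 library. Alternatives tried were DESeq2 1.42.0, edgeR's likelihood ratio test, RLE factors, total counts, other filters, the replicate block and each library left out. A CPM of 1 is 11 to 16 counts here, so counting error is small for most members. Chi-square per degree of freedom between libraries of a group was 7.17 to 54.2, above what sampling noise gives.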

Additional observations from a re-analysis of the deposited data

Results flagged for a closer look

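In 4 of the 68 groups of 4 libraries examined (34 named members in both groups), 1 library stood apart from the other 3 by Dixon's criterion, where chance gives about 1 in 20 groups. Hsph1 had 215 normalised CPM in control-tagged replicate 1, a gap of 0.901 of the group's range. Hspa12b had 76.4 in the same library, below the others. Hspa1l had 24.2 in control-tagged replicate 2, below the others but above every TK-tagged library. Dnajc27 had 18.7 in TK-tagged replicate 2, below the others.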

How the results depend on the processing

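The number of members called was 0 in the quasi-likelihood fit and under the other scalings, filters and left-out libraries. It was 1, Hspa1l, with the likelihood ratio test (log2 fold change -0.60) and 1 with DESeq2 (-0.59). At an unadjusted p under 0.05 stood 7 members, and 4 to 8 with 1 library left out (4 without TK-tagged replicate 4). The median log2 fold change was 0.0041 to 0.077 with 1 library left out and -0.039 with the groups of the sample titles, which turn every sign. Of the values of single named members, 486 kept their direction and their side of the threshold, 2 passed it (Hspa1l) and 22 reversed. With 1 library left out, reversals took in Hsp90aa1 (-0.35 to 0.011), Hsph1 (-0.44 to 0.12), Bag1 (-0.059 to 0.11), Bag3 (-0.10 to 0.12), Cryab (-0.22 to 0.0024), Dnajb5 (-0.033 to 0.20), Hsf1 (-0.12 to 0.041), Hsf2 (-0.036 to 0.069), Hsp90ab1 (-0.059 to 0.14) and Hspe1 (-0.073 to 0.14). With total counts as the scale, which shifted the median of all genes to -0.017, Bag3 was -0.016 and Hsf2 -0.0061. The cause of these changes was not tested.

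With the replicate block, 0 members were called, 6 had an unadjusted p under 0.05, the median was 0.041, and Hspa1a and Hspa1b moved to -1.20 and -1.43. Same-numbered libraries correlated by -0.03, 0.03, 0.34 and -0.06 in their deviations from the group means. Differently numbered libraries were not compared, so these values cannot show whether the numbers pair the libraries. Co-variation gave 8 pairs in place of 6 with centred groups. With 4 libraries a group, a permutation p cannot go below 0.0286, and RNA does not show protein levels.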
